A study of Mus musculus with 46 samples.

Results

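The integrin and laminin genes are the 43 protein-coding mouse genes whose symbols begin with Itga, Itgb, Lama, Lamb or Lamc, out of 22367 protein-coding genes with a chromosomal position in the mm9 annotation used (GENCODE vM1). The symbols gave 18 integrin alpha genes, 9 integrin beta genes and 11 laminin genes. They also gave 5 genes that share the letters and are not subunits: Itgb1bp1, Itgb1bp2, Itgb1bp3, Itgb3bp and Itgbl1. No measured value entered the choice. For each gene the peaks of a library that touched the gene or its flanks of 1 kb were collected, and their covered length and normalised tag count (tags per 10 M) were summed.

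Laminins are secreted trimers of an alpha, a beta and a gamma chain that assemble into the basement membrane, the sheet of matrix under epithelia and around muscle, fat and vessels. Integrins are alpha-beta pairs in the cell membrane that bind laminin, collagen, fibronectin or vitronectin outside the cell and link them, through talin, vinculin and kinases, to the actin cytoskeleton. Fibroblasts spread on fibronectin and vitronectin through beta1 and beta3 integrins, whereas cells of the early embryo contact laminin. The histone variant H3.3 replaces canonical H3 over transcribed genes through Hira and at telomeres and pericentric repeats through Atrx and Daxx. H3K4me3 marks active gene starts and H3K36me3 the bodies of transcribed genes.

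The libraries came from chromatin immunoprecipitation with sequencing in 2 conversions of mouse embryonic fibroblasts that carry an IRES-EGFP reporter at Oct4. For reprogramming, fibroblasts received Oct4, Sox2, Klf4 and c-Myc by retrovirus. D0 denotes the fibroblasts on day 0 and D3 the unsorted culture on day 3. Cells of days 6 and 9 were sorted on Thy-1, a fibroblast surface protein, and cells of days 12 and 16 on SSEA-1, an early pluripotency antigen, giving the successful fractions D6T-, D9T-, D12S+ and D16S+ and the unsuccessful fractions D6T+, D9T+, D12S- and D16S-. The iPSCs and the embryonic stem cell line ESD3 were grown without feeder cells. For transdifferentiation, fibroblasts depleted of cells with hematopoietic surface markers (MEF) received retroviral Scl, Lmo2, Runx1 and Bmi1. They were collected on day 4 (D4) and later as cKit+ and cKit- cells from co-culture with inactivated OP9 stromal cells, so that stromal chromatin in the last 2 libraries cannot be told apart from that of the converted cells.

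H3.3 was profiled in 16 groups, and H3K4me3 and H3K36me3 in the 7 groups from D0 through the successful fractions to the iPSCs. Each group had 1 library, so no difference below has a replicate check and no p-value is given. Values given by day alone are those of D0, D3 and the successful fractions in turn, and the unsuccessful fractions are given for days 6, 9, 12 and 16 in turn. A gene is called lower or higher where its summed tags differed at least 2-fold and by at least 10 tags per 10 M, with no peak taken as 0. Ranges in brackets are exact Poisson 95% intervals and cover counting error only. In these bulk samples, fewer cells carrying H3.3 at a gene and less H3.3 per cell cannot be told apart.

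The H3.3 libraries of reprogramming held between 18.7 and 41.2 M tags, of which peaks took from 4.88% in D16S+ to 22.0% in D12S-. Those of transdifferentiation held between 46.7 and 91.8 M tags, and the share in peaks was 37.2% in D4 but 1.65% in cKit+ and 2.31% in cKit-. Summed tags move with this share, so counts of members are given beside the percentage of all coding genes called in the same direction. The marker lists followed the labels in reprogramming: all 13 fibroblast markers were lower and 10 of 11 pluripotency markers higher in iPSCs than in D0. In cKit+, 3 of 11 hematopoietic markers had an H3.3 peak, with 23.2 tags in all, where 33.2% of all coding genes had one, and Ptprc, Kit, Gata1, Lyl1, Gfi1b, Cd48, Mpo and Hbb-b1 had none. In cKit-, 4 of 11 had one, with 75.89 tags in all, where 31.8% of coding genes had one. They included Ptprc (45.35 tags) and Mpo (16.48). Fibroblast markers had a peak at 8 of 13 genes in cKit+, with 408.9 tags, and at 9 in cKit-, with 765.02.

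An H3.3 peak was called at 39 of the 43 genes in D0, 28 in iPSCs, 28 in ESD3 and 41 in D4, where 61.9%, 61.2%, 52.1% and 72.1% of all coding genes had one. The members' windows are longer, with a median of 64.4 kb against 17.4 kb. From D0 to iPSCs, 20 of the 40 members with a peak in either library were lower, against 37.7% of coding genes, and 5 were higher, against 20.2%. The median difference on the log2(tags + 10) scale was -0.83 over the members and -0.46 over all coding genes. The members that were lower included most receptors for fibronectin and vitronectin, 7 of 8 with none higher. Of these 7, Itga8 and Itgb8 were not lower under every alternative. Itgb1, the shared beta chain of most matrix receptors, was counted in this group alone. Among the 4 laminin receptor subunits 1 was lower (Itga7) and 2 were higher (Itga3 and Itga6), but each of these directions turned under an alternative, as given beside those genes.

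**Figure D1:**
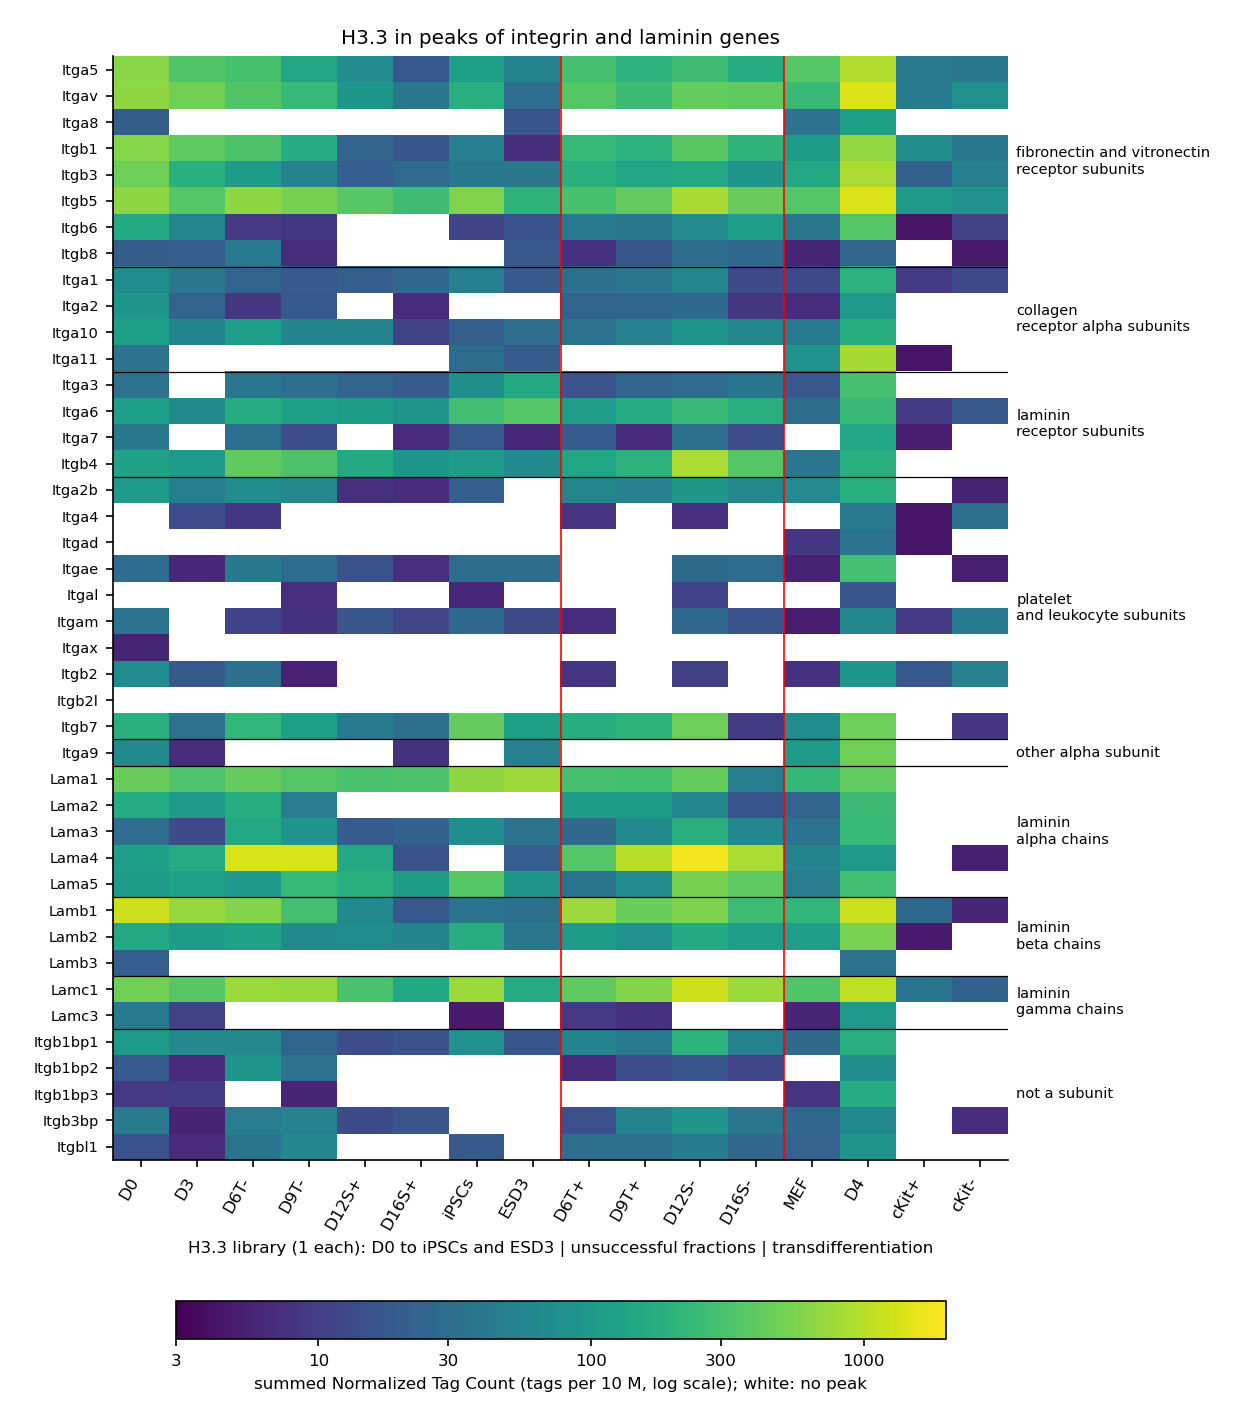
Summed H3.3 tags per 10 M (colour, log scale) of 42 of the 43 genes (rows) in the 16 H3.3 libraries (columns), with white where no peak was called. The row of Lamb1 brightens from 36.97 in iPSCs to 1212 in D0, the row of Lama4 is brightest in D12S-, D6T- and D9T-, and the cKit+ and cKit- columns are mostly white.

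The promoters of 3 members are shown because these genes carry the largest differences between D0 and iPSCs, Lamb1 and Itgb1 lower and Lama5 with the largest gain. Each line holds 300 bases 5′ to 3′ on the gene's strand, from 250 bases before to 50 after the annotated gene start. They were read from the mm9 genome at chr12:31949849-31950148 (+), chr8:131209304-131209603 (+) and chr2:179960515-179960814 (-). Capitals mark GC boxes (GGGCGG or its reverse complement CCGCCC).
Lamb1: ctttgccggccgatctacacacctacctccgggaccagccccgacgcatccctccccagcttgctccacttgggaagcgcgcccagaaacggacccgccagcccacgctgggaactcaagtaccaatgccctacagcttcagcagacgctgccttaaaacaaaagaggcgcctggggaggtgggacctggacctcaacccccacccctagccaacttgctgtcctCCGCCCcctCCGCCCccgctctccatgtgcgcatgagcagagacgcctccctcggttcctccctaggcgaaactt
Itgb1: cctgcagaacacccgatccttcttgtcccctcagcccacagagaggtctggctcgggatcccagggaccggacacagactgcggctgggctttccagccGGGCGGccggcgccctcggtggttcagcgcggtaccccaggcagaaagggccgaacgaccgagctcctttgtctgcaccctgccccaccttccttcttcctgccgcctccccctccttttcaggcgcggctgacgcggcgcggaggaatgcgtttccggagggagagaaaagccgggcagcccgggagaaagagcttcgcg
Lama5: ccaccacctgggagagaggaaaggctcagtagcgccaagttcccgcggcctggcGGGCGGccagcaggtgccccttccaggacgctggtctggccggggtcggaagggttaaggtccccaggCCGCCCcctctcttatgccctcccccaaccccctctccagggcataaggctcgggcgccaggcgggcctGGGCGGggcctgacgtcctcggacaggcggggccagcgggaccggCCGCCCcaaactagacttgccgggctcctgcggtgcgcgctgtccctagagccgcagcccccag

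All 3 windows are CpG-rich, with 19 CpG dinucleotides in Lamb1, 27 in Itgb1 and 24 in Lama5, against a median of 11 over all 22367 promoters. They hold 2, 1 and 4 GC boxes. At least 1 GC box was present in 21 of 43 members (48.8%) and in 43.4% of all promoters. The AP-1 letters TGANTCA occurred in 1 member and 6.93% of promoters, the octamer ATTTGCAT in 1 member and 1.73%, and TATAAA in 2 members and 13.4%, on either strand in each case. An H3K4me3 peak lay over all 3 printed windows in D0 and in iPSCs. An H3.3 peak lay over none of them in D0 and over that of Lama5 alone in iPSCs.

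Over the whole set, 30 of 43 promoter windows were under an H3K4me3 peak in D0 and 26 in iPSCs, while 13 were under an H3.3 peak in D0 and 13 in iPSCs. Of all 22367 promoters, 61.8% and 59.2% were under H3K4me3 and 21.8% and 24.2% under H3.3. The 30 windows with H3K4me3 in D0 had a median of 18 CpG and the 13 without it a median of 5. The bases under H3.3 lay mainly inside the genes. In D0, 78.2% of the bases that H3.3 peaks covered were intronic, where introns made up 88.6% of the windows' bases, and 10.8% lay within 1 kb of a start site, which made up 4.90%. The start-site share was 14.8% in iPSCs.

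The laminin beta1 chain gene Lamb1 (chr12:31950099-32014509, +), whose product belongs to most laminins of the early embryo and of connective tissue, had the largest difference. Its H3.3 tags were 1212 at day 0, 720.4 at day 3, 604 at day 6, 288 at day 9, 63.3 at day 12, 17.9 at day 16, 37.0 in iPSCs and 33.1 in ESD3. The unsuccessful fractions held 764, 459, 564 and 263 tags. Each library of the successful route thus held less than the one before until day 16, and each unsuccessful fraction held more than the successful fraction of its day. D0 [1171 to 1254] exceeded iPSCs [31.3 to 43.3] by 32.8-fold.

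The length under peaks accounted for most of this. H3.3 peaks covered 64.0 kb of the 66.4 kb window of Lamb1 in D0 and 3.60 kb in iPSCs, at 18.9 and 10.3 tags per covered kb. Such densities divide the tags of whole peaks by the length inside the window, so peaks that run past it raise them. A single D0 peak of 57.5 kb ran past the gene's end into a window shared with Dld and Gm11053, so that part of these tags may belong to those genes. The 2 other marks followed, with H3K4me3 at 665 tags in D0 and 78.7 in iPSCs and H3K36me3 at 2238 and 141. Of the 64.0 kb under H3.3 in D0, 59.2 kb also lay under H3K36me3. On a scale that does not depend on the library's total, the rank of tags per kb of window among all coding genes, Lamb1 moved from percentile 95.8 in D0 to 53.2 in iPSCs. Genes with no peak take the lowest 38.1% of ranks in D0 and 38.8% in iPSCs.

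The laminin alpha4 chain gene Lama4 (chr10:38685321-38829994, +), whose product is found in the basement membranes of vessels, muscle and fat, behaved differently. H3.3 tags were 118 at day 0, 162 at day 3, 1391 at day 6, 1372 at day 9, 153 at day 12, 15.2 at day 16, none in iPSCs and 20.8 in ESD3. In the unsuccessful fractions they were 363, 1005, 1781 and 866. The gene was therefore low in fibroblasts, high in both fractions of the intermediate days, and low again only in SSEA-1+ cells and the pluripotent lines. It alone made up 1.56% of the members' H3.3 tags in D0 and 24.8% in D9T-. Its covered length was 8.67 kb in D0 and 80.2 kb in D6T-, at 13.6 and 17.3 tags per covered kb. The D6T- density is raised by peaks that ran past both ends of the window. MEF held 55.4 tags, D4 102, cKit+ none and cKit- 5.33.

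H3K36me3 did not share this course. It already covered 113 kb of Lama4 in D0, with 3328 tags, where H3.3 covered 8.67 kb, and 2.16 kb lay under both. In D6T- the lengths were 26.4 kb for H3K36me3 and 80.2 kb for H3.3, and in D9T- they were 107 kb and 79.7 kb with 49.9 kb under both. The D6T- H3K36me3 library had an estimated fragment length of 444 bases, against 120 to 158 in the other 6 libraries of that mark. H3K4me3 was highest on the days when H3.3 was, with 225 tags at day 0, 200 at day 3, 726 at day 6, 523 at day 9, 107 at day 12, 15.5 at day 16 and 7.91 in iPSCs.

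**Figure D2:**
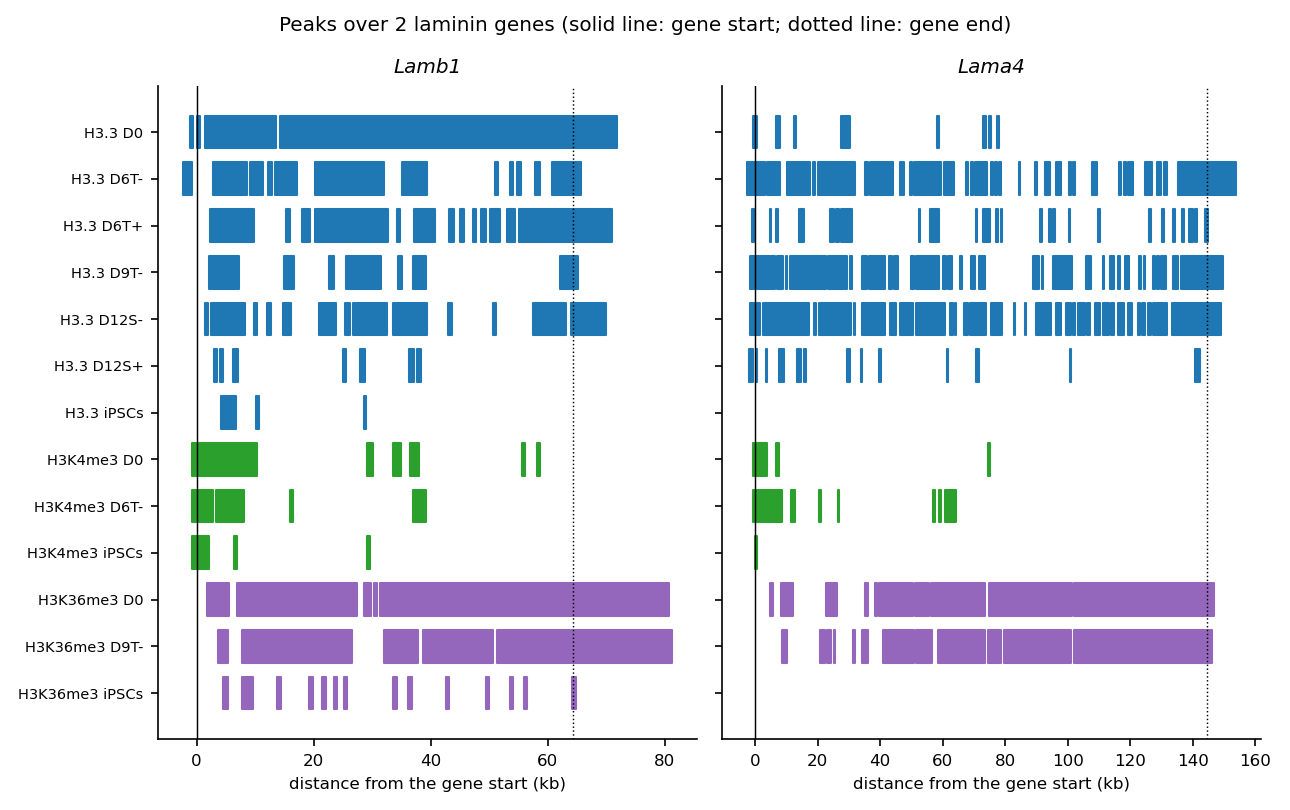
Peaks of H3.3 (blue), H3K4me3 (green) and H3K36me3 (purple) over Lamb1 and Lama4 by distance from the gene start in kb, 1 row per library. In D0, H3.3 fills Lamb1 (64.0 kb covered) but little of Lama4 (8.67 kb), where H3K36me3 covers 113 kb.

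The 2 laminin genes with the largest gains from D0 to iPSCs were Lama5 and Lamc1. Their products form laminin-511, made by early embryonic epithelia, together with that of Lamb1, the member with the largest fall. The chains of this trimer thus did not move together. Lama5 (chr2:179911078-179960564, -) had 106 H3.3 tags at day 0, 123 at day 3, 97.2 at day 6, 235 at day 9, 182 at day 12, 103 at day 16, 373 in iPSCs and 91.9 in ESD3. The unsuccessful fractions had 36.6, 68.4, 526 and 402 on days 6, 9, 12 and 16. Lama5 was the only member with more H3K4me3 in iPSCs (446 tags) than in D0 (142) past the call. H3K36me3 was also higher, at 209.8 tags against 48.0. Its H3.3 percentile was 66.8 in D0, 90.5 in iPSCs and 82.7 in ESD3, and 23.4% of the bases of its D0 peaks lay outside the window, which overlaps that of Adrm1. With only peaks of at least 4-fold over input, iPSCs held 30.7 H3.3 tags fewer than D0. For H3K4me3, with at least 8-fold, D0 kept 142 tags and iPSCs none.

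Lamc1 (chr1:155066052-155179916, -), the gamma chain of most laminins, had 504 tags at day 0, 371 at day 3, 757 at day 6, 743 at day 9, 309 at day 12, 145 at day 16, 748 in iPSCs and 163 in ESD3. Its unsuccessful fractions had 398, 593, 1216 and 753. Although the tags of iPSCs [721 to 775] exceeded those of D0 [477 to 531], the difference was under 2-fold, and ESD3 lay below both. With only peaks of at least 4-fold over input the direction turned, with 235 tags in D0 and 38.0 in iPSCs. H3K36me3 ran the other way, from 889 tags in D0 to 7 in iPSCs.

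**Figure D3:**
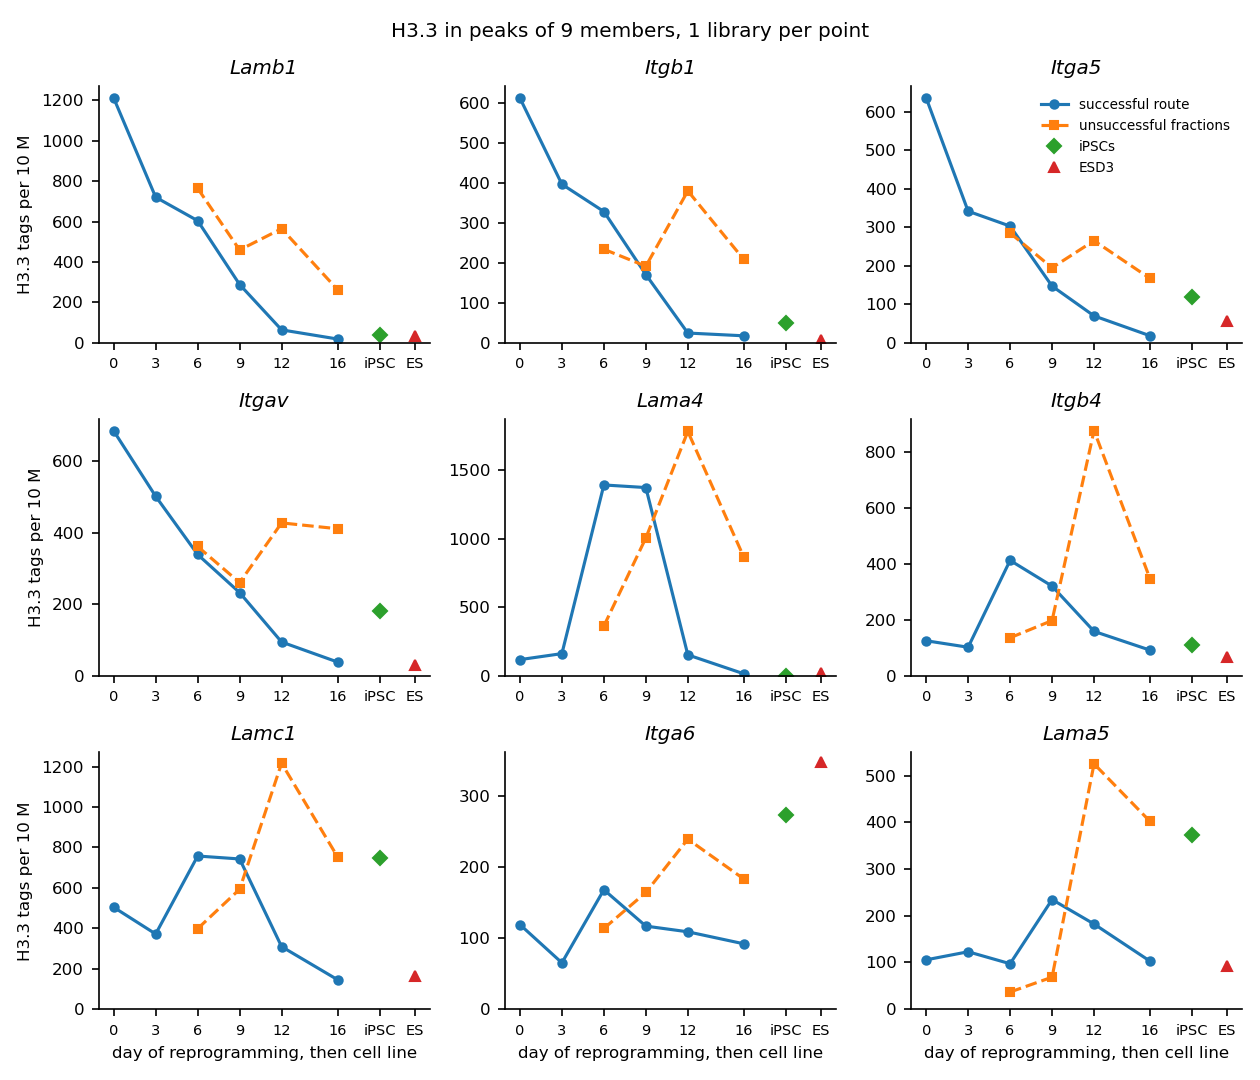
H3.3 tags per 10 M (y axis) of 9 members by day of reprogramming, then iPSCs and ESD3 (x axis), with circles for the successful route and squares for the unsuccessful fractions, 1 library per point. Lamb1, Itgb1, Itga5 and Itgav are highest in D0, Lama4 peaks at 1391 in D6T- and 1781 in D12S-, and Itga6 is highest in the 2 pluripotent lines.

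The remaining laminin chains divided. Lama2, the chain of muscle and nerve basement membranes, had 166 tags in D0, 97.8 in D3, 171 in D6T-, 46.2 in D9T- and no peak in D12S+, D16S+, iPSCs or ESD3, while the unsuccessful fractions held 104, 109.8, 60.2 and 16.1. Lama3, the chain of epidermal laminin-332, had 30.4 tags at day 0, 13.6 at day 3, 151 at day 6, 88.6 at day 9, 19.99 at day 12, 22.4 at day 16, 73.6 in iPSCs and 34.3 in ESD3, against 28.4, 65.2, 188 and 61.7 in the unsuccessful fractions. Its call in iPSCs did not hold when only peaks of at least 4-fold over input were kept. Lamb2, of neuromuscular and kidney laminins, had 151 tags at day 0, 103 at day 3, 126 at day 6, 66.0 at day 9, 71.7 at day 12, 55.7 at day 16, 172 in iPSCs and 38.2 in ESD3, and 108, 85.7, 160.1 and 115 in the unsuccessful fractions, with 31.8% of its D0 peak bases outside the window, which overlaps that of Usp19. Lamb3 and Lamc3 had 20.8 and 44.9 tags in D0 and were called lower, with none and 4.86 in iPSCs.

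Lama1, whose product is the alpha chain of the first embryonic laminin, needs its peaks examined before its tags are read. The gene (chr17:68046605-68171985, +) had 452 H3.3 tags in D0, 673 in iPSCs and 767 in ESD3. In 13 of 16 libraries a single narrow peak of under 1 kb held nearly all of them in D0, iPSCs and ESD3. It lies in an intron, over a simple tandem repeat. The peak held 446 tags in D0 at 5.35-fold over input, 631 in iPSCs at 3.65-fold and 761 in ESD3 at 4.63-fold. Input over the peaks of Lama1 was itself dense, at 39.7 times the density of that library's median H3.3 peak in ESD3. No H3K4me3 or H3K36me3 list had a peak on it, and it was absent from D16S-, cKit+ and cKit-. The authors dropped reads that mapped to more than 1 locus, and whether reads from other copies of the repeat reached this site was not tested.

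Without the repeat peak, Lama1 held 5.94 H3.3 tags at day 0, 40.0 at day 3, 64.9 at day 6, 58.1 at day 9, 14.2 at day 12, 7.2 at day 16, 42.0 in iPSCs and 6.48 in ESD3. The unsuccessful fractions held 7.22, none, 162 and 48.8. The counts from D0 to iPSCs were then 20 lower and 6 higher, against 37.7% and 20.2% of coding genes in the main setting. On day 16 the direction turned, from 275 tags more in D16S+ than in D16S- to 48.8 against 7.2. H3K36me3, which has no peak on the repeat, was absent from Lama1 in D0 and iPSCs and reached 1796 tags in D9T-.

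**Figure D4:**
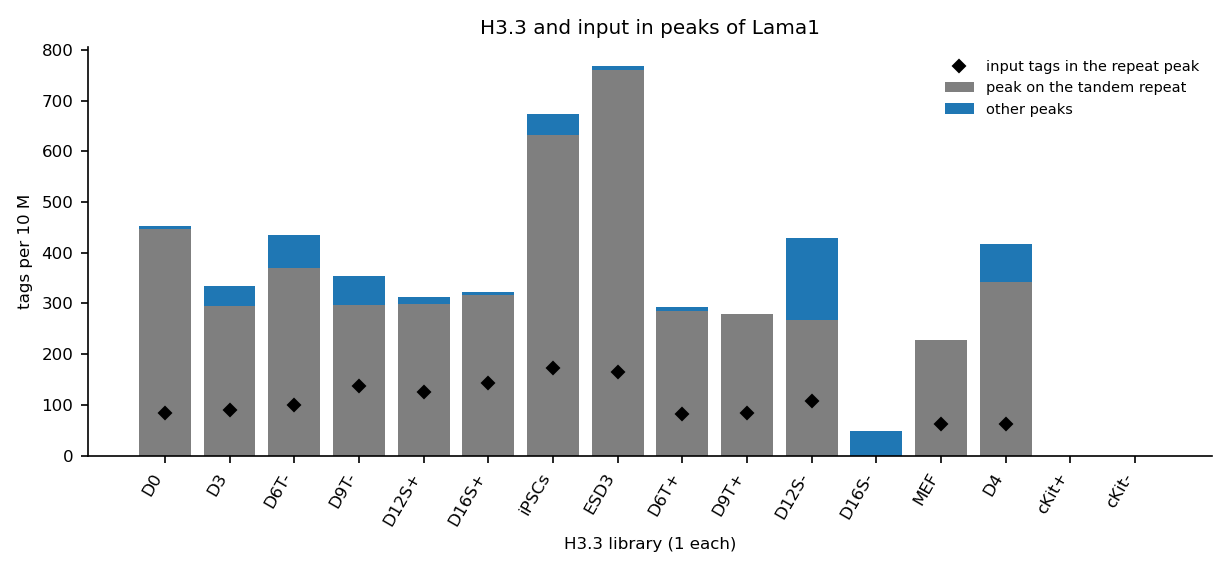
H3.3 tags per 10 M in the peak on the tandem repeat of Lama1 (grey) and in its other peaks (blue), stacked, in the 16 H3.3 libraries, with input tags in the repeat peak as diamonds. The repeat peak holds 446 of 452 tags in D0 and 761 of 767 in ESD3.

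Among the integrins, the receptors for fibronectin and vitronectin held the most H3.3 in fibroblasts. The 8 subunits Itga5, Itga8, Itgav, Itgb1, Itgb3, Itgb5, Itgb6 and Itgb8 summed to 3275 tags in D0 and 978 in iPSCs. This was 43.2% of all tags at members in D0, 25.4% in D6T-, 22.1% in iPSCs and 15.7% in ESD3. With the Lama1 repeat peak left out of the total, the shares were 45.9%, 26.8%, 25.8% and 22.7%. All but Itgb5 were called lower in iPSCs.

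Itgb1, the shared beta chain of most matrix receptors (chr8:131209554-131257100, +), had 611 tags at day 0, 396 at day 3, 328 at day 6, 170 at day 9, 24.0 at day 12, 17.1 at day 16, 48.9 in iPSCs and 6.94 in ESD3. The unsuccessful fractions held 233, 191, 379 and 208. T- thus held more than T+ on day 6, short of the call, and slightly less on day 9, while S- held far more than S+ on day 12. Over all coding genes, 46.6% were higher in D6T- and 74.1% lower in D12S+. The fractions of days 6 and 9 were sorted on another marker than those of day 12. D0 [582 to 642] exceeded iPSCs [42.3 to 56.1] by 12.5-fold. The covered length was 40.3 kb in D0 and 4.28 kb in iPSCs, and H3K36me3 went from 1080 tags to 60.3.

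Itga5 pairs with Itgb1 to form the main fibronectin receptor (chr15:103174720-103197194, -). It had 635 tags at day 0, 341 at day 3, 303 at day 6, 147 at day 9, 69.4 at day 12, 17.9 at day 16, 119 in iPSCs and 55.2 in ESD3, and 285, 194, 265 and 167 in the unsuccessful fractions. Its peaks covered 23.4 kb of its 24.5 kb window in D0. Of their bases 25.8% lay outside the window in D0, 35.3% in D6T- and 40.0% in D12S+. Despite a 5.32-fold difference it remained among the densest genes of the pluripotent lines, at percentile 97.8 in D0, 84.8 in iPSCs and 86.0 in ESD3.

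Itgav, the alpha chain of the vitronectin receptors (chr2:83564554-83647073, +), had 685 tags at day 0, 502 at day 3, 339 at day 6, 233 at day 9, 94.7 at day 12, 38.7 at day 16, 180 in iPSCs and 30.5 in ESD3, and 362, 261, 428 and 411 in the unsuccessful fractions. Its partner Itgb3 (chr11:104469370-104531790, +) had 481, 187, 111, 55.6, 21.1, 28.8, 41.7 and 39.1 in the same order of libraries, and 184, 140, 151 and 93.6 in the unsuccessful fractions. D0 exceeded iPSCs 3.8-fold at Itgav and 11.53-fold at Itgb3. The other partner Itgb5 (chr16:33829751-33949239, +) had 662 tags at day 0, 361 at day 3, 667 at day 6, 534 at day 9, 374 at day 12, 263 at day 16, 576 in iPSCs and 206 in ESD3, and was called neither way. Its unsuccessful fractions held 302, 417, 847 and 457. Of the beta chains that pair with Itgav, Itgb3 and Itgb5 thus differed in course while both were high in D0.

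Itgb6, the epithelial partner of Itgav, had 160 tags in D0, 58.1 in D3, 8.93 in D6T-, 8.50 in D9T-, no peak in D12S+ or D16S+, 11.3 in iPSCs and 15.5 in ESD3, and 45.4, 40.1, 69.5 and 113 in the unsuccessful fractions. Itga8 and Itgb8 held 20.2 tags each in D0 and none in iPSCs, and 16.7 and 17.6 in ESD3. The values of Itga8 and Itgb8 are low.

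The laminin receptor subunits did not move together. Itga3, Itga6, Itga7 and Itgb4 summed to 320 tags in D0 and 479 in iPSCs, a difference that was nearly all at Itga6. Their H3K4me3 summed to 689 tags in D0 and 490.2 in iPSCs. Without the Lama1 repeat peak they made up 4.49% of the members' H3.3 tags in D0, 12.6% in iPSCs and 33.6% in ESD3. Itga6, the alpha chain of the laminin receptors of stem cells and of hemidesmosomes (chr2:71583673-71696473, +), had 119 tags at day 0, 65.2 at day 3, 168 at day 6, 117 at day 9, 109 at day 12, 92.0 at day 16, 273 in iPSCs and 347 in ESD3. The unsuccessful fractions had 114, 164, 239 and 183. D0 [106 to 133] lay below iPSCs [258 to 290] and ESD3 [323 to 373].

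Itga6 was also the member whose H3K36me3 was higher in iPSCs under every alternative tried, at 7.12 tags at day 0, none at day 3, 46.1 at day 6, 571 at day 9, 21.0 at day 12, 9.10 at day 16 and 129 in iPSCs. By rank the order of D9T- and iPSCs was the reverse. Its H3K36me3 percentile was 64.9 in D9T- and 85.1 in iPSCs, where genes with no peak take the lowest 49.7% and 65.3% of ranks. Its H3K4me3 was 226 tags in D0 and 247 in iPSCs. The H3.3 call of Itga6 was lost when only peaks of at least 4-fold over input were kept, where iPSCs held 58.2 tags fewer than D0.

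Itga3, the alpha chain of another laminin receptor, had 34.9 tags at day 0, none at day 3, 38.8 at day 6, 32.6 at day 9, 24.4 at day 12, 19.7 at day 16, 76.1 in iPSCs and 154 in ESD3, its highest value in reprogramming. The unsuccessful fractions had 15.8, 24.3, 29.3 and 37.2. Of its D0 peak bases 65.4% lay outside the window, and with only peaks of at least 4-fold over input iPSCs held 34.9 tags fewer than D0. Itgb4, which pairs with Itga6 in hemidesmosomes, had 126 tags at day 0, 102 at day 3, 413 at day 6, 321 at day 9, 159 at day 12, 92.0 at day 16, 109 in iPSCs and 66.8 in ESD3. It had 136, 198, 878 and 348 in the unsuccessful fractions. Itgb4 was therefore highest in D12S- and D6T-, as Lama4 was, with 39.9% of its D12S- peak bases outside the window, which overlaps that of Galk1. Itga7, of muscle laminin receptors, had 40.2 tags in D0 and 19.6 in iPSCs, with 74.0% of its D0 peak bases outside the window. With at least 50% of a peak inside, iPSCs held 13.5 tags more than D0.

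The 4 collagen receptor alpha subunits held between 35.3 and 120 tags in D0. Itga2 and Itga10 were called lower, from 88.8 tags to none and from 120 to 21.51, while Itga1 (71.3 and 49.5) and Itga11 (35.3 and 30.2) were called neither way.

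The platelet and leukocyte subunits were mostly low outside Itgb7. Of the 10 genes, Itgb2l had no peak in any library and Itgax had one in D0 alone, with 5.94 tags. Itga2b, the platelet alphaIIb chain, had 101 tags in D0 and 21.6 in iPSCs, and Itgb2, the common leukocyte beta chain, 71.3 in D0 and none in iPSCs. Itgb7, a lymphocyte homing subunit, had 187 tags at day 0, 34.1 at day 3, 222 at day 6, 122 at day 9, 42.2 at day 12, 31.7 at day 16, 429 in iPSCs and 121 in ESD3, and 172, 202, 470.4 and 9.51 in the unsuccessful fractions. Of its peak bases 79.3% lay outside its window in iPSCs and 27.6% in D0, and with peaks counted only where at least 50% lay inside, iPSCs held 39.3 tags fewer than D0.

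Among the genes that are not subunits, Itgb1bp1, a binding partner of the beta1 tail, had 105 tags in D0 and 80.1 in iPSCs. Itgb1bp2, a muscle chaperone, and Itgb3bp, a centromere protein, were called lower, from 19.9 and 42.6 tags to no peak. Itgbl1 had 15.6 and 18.9, and Itgb1bp3 8.72 and none. Itga9, which binds tenascin and was counted in no receptor group, had 64.4 tags in D0, none in iPSCs and 50.6 in ESD3.

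For H3K4me3, 26 of 36 members with a peak in either library were lower in iPSCs than in D0, against 69.6% of coding genes, and 1 was higher, against 3.64%. For H3K36me3, 20 of 29 were lower, against 84.2%, and 4 were higher, against 3.12%. They included Itga3 (none to 15.7 tags), Itga6 and Lama5. Peaks took 12.7% of the H3K4me3 tags in iPSCs against 30.4% in D0, and 2.88% of the H3K36me3 tags against 31.3%, and the shares of members that were lower stood near or below the background. With tags scaled to those inside peaks, 11 were lower and 5 higher for H3K4me3, against 14.9% and 11% of coding genes, and 11 and 9 for H3K36me3, against 41.8% and 24.5%.

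Within 1 kb of a start site, H3K4me3 peaks were found at 34 of 43 members at day 0, 30 at day 3, 32 at day 6, 31 at day 9, 29 at day 12, 21 at day 16 and 28 in iPSCs. The shares of all coding genes were 66.6% in D0, 46.5% in D16S+ and 64.9% in iPSCs, against 79.1%, 48.8% and 65.1% of members. None of the 7 libraries had such a peak at Itgad, Itgae, Itgal, Itgam, Itgax, Itgb2l, Itgb1bp2 or Itgb1bp3, of which the first 6 are leukocyte subunits.

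The sorted fractions of one day were set side by side, from the unsuccessful to the successful fraction. On day 6, 12 of 34 members were higher in D6T-, against 46.6% of coding genes, and 2 lower, against 5.35%. The 5 largest differences were at Lama4, Itgb5, Lamc1 and Itgb4, all higher, and at Lamb1, which held 160 tags fewer in D6T-. On day 9, 5 of 35 were lower in D9T-, against 8.81%, and 3 higher, against 22.5%, with Lama4 and Lamb1 again differing most (367 more and 171 fewer tags), followed by Lama5, Lamc1 and Itgb4, all with more tags in D9T-. With tags scaled to those inside peaks, the day 6 counts were 5 lower and 6 higher, against 11.3% and 22.8% of coding genes.

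On day 12 most members were lower in the successful fraction. Of 34 members 28 were lower in D12S+ and none higher, against 74.1% and 1.57% of coding genes. The largest differences were at Lama4 (1781 against 153), Lamc1 (1216 against 309), Itgb4 (878 against 159), Lamb1 (564 against 63.3) and Itgb5 (847 against 374). On day 16, 22 of 32 were lower and 2 higher, against 61.3% and 5.63%, with Lama4 (866 against 15.2) and Lamc1 (753 against 145) first and Itgav next (411 against 38.7). Lama5 followed (402 against 103), and Lama1 was higher only through its repeat peak, which D16S- lacks. Fibroblast markers moved with these pairs, at 1827 tags and 13 of 13 genes with a peak in D12S- against 122 tags and 7 genes in D12S+. On day 16 they were at 736 tags and 13 genes against 27.7 tags and 3 genes, and their part in the result was not tested. The shares in peaks, 22.0% in D12S- and 6.93% in D12S+, also moved with it, and with tags scaled to those inside peaks the counts were 18 lower and 3 higher on day 12, against 32.2% and 13%, and 13 and 4 on day 16, against 37.1% and 19.6%.

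From iPSCs to ESD3, 15 of 32 members were lower and 5 higher, against 47.3% and 5.13%. Those higher included Itga3 (76.1 to 154) and, from no peak, Itga8, Itga9, Itgb8 and Lama4. Lamc1 (748 to 163) and Lama5 (373 to 91.9) were lower. Scaled to the tags inside peaks, 8 were lower and 9 higher, against 26.9% and 17.3%.

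The 2 fibroblast libraries, D0 and MEF, differed as well. From D0 to MEF, 24 of 40 members were lower and 1, Itga11, was higher, against 60.2% and 3.14%. Itga11, a collagen receptor chain of fibroblasts, had 35.3 tags in D0 and 85.5 in MEF. D0 exceeded MEF 5.52-fold at Lamb1 and 5.55-fold at Itgb1. Of the 26 members with peaks in D0, MEF and iPSCs, 16 had at least 2 times as many tags in D0 as in MEF and 9 at least 2 times as many in D0 as in iPSCs. MEF had been depleted of hematopoietic cells and its library also had 7.64% of tags in peaks against 19.1% in D0, so the cells and the library cannot be told apart. Scaled to the tags inside peaks, 12 members were lower and 7 higher in MEF, against 29.5% and 16.9%. A fold between D0 and iPSCs therefore has to be read beside the spread of these 2 fibroblast libraries.

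In transdifferentiation the members followed the library. From MEF to D4, 39 of 41 members were higher and none lower, against 90.2% and 0.331% of coding genes. Itgav had 249 tags in MEF, 1410 in D4, 43.7 in cKit+ and 78.9 in cKit-. Itgb5 had 352, 1404, 101 and 80.3, Lamb1 219, 1185, 26.1 and 6.01, Itga11 85.5, 839, 4.36 and none, and Lamc1 343, 1082, 36.9 and 22.5. From D4 to cKit+ all 41 members with a peak were lower, against 93.4% of coding genes, and none was higher, against 0.08%. No laminin alpha chain gene had a peak in cKit+. Scaled to the tags inside peaks, 3 were lower and 11 higher in D4 than in MEF, against 5.15% and 29.1%, and 27 lower and 5 higher in cKit+ than in D4, against 58.5% and 13.1%.

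Shares within the set do not depend on a library's total, but they do depend on which members had a called peak. A peak was called at 36 members in MEF, 41 in D4, 18 in cKit+ and 20 in cKit-. The effect of such drop-out on the shares was not tested. The fibronectin and vitronectin receptor subunits made up 42.7% of the members' tags in MEF, 39.1% in D4, 65.4% in cKit+ and 57.9% in cKit-, with the Lama1 repeat peak in the total of the first 2. At Itgb2 the tags were 7.82 in MEF, 90.3 in D4, 17.9 in cKit+ and 51.4 in cKit-, and its percentile was 51.8 in D4, 87.1 in cKit+ and 94.4 in cKit-, where genes with no peak take the lowest 27.9%, 66.8% and 68.2% of ranks. Itgam, the alpha chain of the macrophage receptor Mac-1, had 4.93, 61.0, 8.94 and 43.8, and Itga4, the VCAM-1 receptor chain, had none, 45.0, 4.30 and 32.2. These 3 leukocyte genes had more tags in cKit- than in cKit+, although neither library has a replicate. No member had a peak of at least 4-fold over input in either library. The platelet and leukocyte group made up 8.02% of the members' tags in cKit+ and 27.7% in cKit-.

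**Figure D5:**
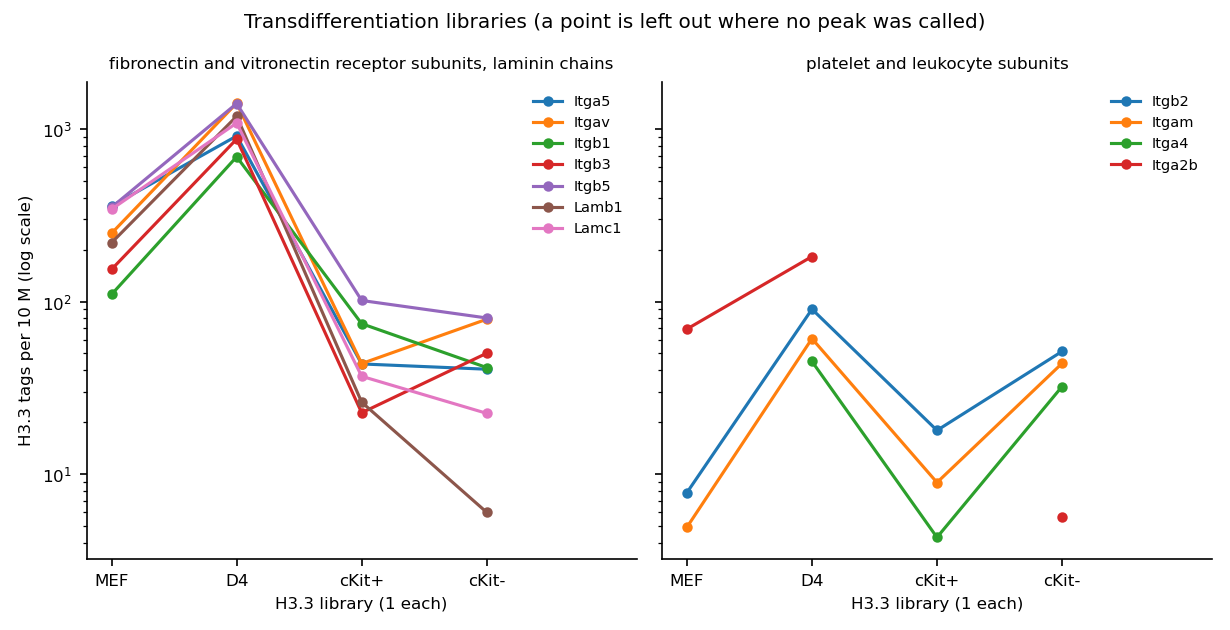
H3.3 tags per 10 M (log scale) in MEF, D4, cKit+ and cKit- for 7 receptor and laminin genes (left) and 4 platelet and leukocyte subunits (right), with no point where no peak was called. All 7 genes on the left are highest in D4, and Itgb2, Itgam and Itga4 on the right are higher in cKit- than in cKit+.

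The partners of these genes were described by 2 lists. Of the integrin adaptor genes, which tie integrins to actin, 20 of 22 had a peak in D0 or iPSCs, 15 were lower in iPSCs and none was higher, against 37.7% and 20.2% of coding genes. They included talin (Tln1), vinculin (Vcl), zyxin (Zyx), focal adhesion kinase (Ptk2) and integrin-linked kinase (Ilk), and the median log2 difference was -1.62 against -0.46 over all genes. Of the basement membrane genes 20 of 22 had a peak, 10 were lower and 4 higher, against the same 37.7% and 20.2%, with a median of -1.28. The lower genes included nidogen 1 (Nid1), perlecan (Hspg2), type IV collagen (Col4a1, Col4a2) and fibronectin (Fn1), and the higher ones were Nid2, agrin (Agrn), dystroglycan (Dag1) and the laminin receptor Bcam. Summed H3.3 tags of the adaptor genes were 13262.1 in D0, 7102.68 in MEF and 5116.09 in iPSCs. Those of the basement membrane genes were 11913.5, 4744.75 and 4008.42. Much of each fall was thus also seen between the 2 fibroblast libraries, and these lists too have to be read beside that spread. For H3K36me3, 19 of 19 adaptor genes with a peak were lower, against 84.2% of coding genes. Between the day 12 fractions, 18 of 19 adaptor genes and 12 of 18 basement membrane genes were lower in D12S+, where 74.1% of coding genes were.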

How the data were processed

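The 30 peak lists were made by the authors. Reads were mapped with STAR to mm9, reads with more than 2 mismatches or more than 1 locus were removed, and HOMER called regions in histone style against the matched input (16 inputs served the 30 lists), at a fold of at least 2 for H3.3 and 4 for the other marks. Versions are not given in the sources used here. The deposited normalised tag count of a peak is a signal in tags per 10 M, with no division by length and no input subtracted, and the deposited fold is a ratio over input. Score and p-value columns were not used. A whole peak counted for every window it touched, so neighbouring genes can share it.

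Genes came from GENCODE vM1, and promoters were read from the mm9 genome. Peaks were joined with Python 3.11.15 and numpy 2.4.6, and intervals came from scipy 1.17.1. The window sums and calls were run on simulated peaks without counting noise or peaks across window edges, which checks the arithmetic alone. Each group had 1 library, so nothing was tested. The log2 scale had a pseudocount of 10. All 43 members entered the counts and sums, but 1 member and some sequences are not reported here. Values per reprogramming library are given for the 8 largest falls and 8 largest rises from D0 to iPSCs and the 5 largest differences in each fraction pair (for Lama1, without its repeat peak), and values per transdifferentiation library for the 5 largest from MEF to D4, and the other members were named for completeness. Members, receptor roles and lists were chosen with earlier results of these data known. Alternatives were a fold of at least 2 times each mark's minimum, covered length, tags scaled to those in peaks, equal numbers of top peaks and at least 50% of a peak inside the window.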

Additional observations from a re-analysis of the deposited data

Results flagged for a closer look

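The input of ESD3 at the peaks of Lama1 was 39.7 times as dense as at that library's median H3.3 peak. Input tags were compared for Lama1 alone in the report, although peaks were called against input. Each library's own matched input was at least 10 times that library's median in 8 of the 14 libraries with a Lama1 peak.

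The differences between fractions had opposite signs on successive days at 2 members. Itgb8 held 7.68 tags in D6T+ and 42.5 in D6T-, but 17.15 in D9T+ and 6.95 in D9T-, so that the day 9 difference minus the day 6 difference was -45.02. Itgb7 held 470.4 tags in D12S- and 42.2 in D12S+, but 9.51 in D16S- and 31.7 in D16S+, so that the day 16 difference minus the day 12 difference was 450.45. Of its peak bases 79.7% lay outside its window in D12S-, 29.4% in D16S+ and 0% in D16S-. Neither difference between days was tested, with 1 library per fraction.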

How the results depend on the processing

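No paired analysis was possible because each group has 1 library, and no library could be left out. Of the recomputed counts of members lower or higher, 96 stayed within 1.5 times the reported count and 40 moved, as follows, and the cause was not tested. With only peaks of at least 2 times the minimum fold, the counts were 1 higher from D0 to iPSCs for H3.3, 0 higher for H3K4me3, 6 lower and 1 higher for H3K36me3, 6 lower on day 6, 15 lower on day 9, 1 higher on day 12, and 4 lower and 12 higher from iPSCs to ESD3. Counts in this setting were not made for the comparisons with transdifferentiation libraries. In it no member kept a peak in cKit+ or cKit-. By covered length they were 12 lower and 2 higher for H3K4me3, 2 lower on day 9, 1 higher on day 12 and 0 higher on day 16. Scaled to the tags in peaks they were 11 lower and 5 higher for H3K4me3, 11 and 9 for H3K36me3, 5 and 6 on day 6, 18 and 3 on day 12, 13 and 4 on day 16, 8 and 9 from iPSCs to ESD3, 12 and 7 from D0 to MEF, 3 and 11 from MEF to D4, and 27 and 5 from D4 to cKit+. With equal numbers of top peaks they were 10 lower for H3K36me3, 4 higher from D0 to MEF and 1 lower from MEF to D4. With at least 50% of a peak inside the window they were 1 higher on day 12, 2 higher from D0 to MEF, and 1 lower from MEF to D4 and 1 higher from D4 to cKit+. Without the Lama1 repeat peak, a setting chosen after seeing the data, 1 was higher on day 16. Among these settings, shares of all coding genes are given above only for tags scaled to those in peaks. The other counts show how the calls depended on the setting, not how members compared with all genes.

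The direction from D0 to iPSCs turned for 7 values of members called in that comparison. At a fold of at least 4 it was -34.9 tags for Itga3, -58.2 for Itga6, -186.7 for Itgb7, -4.54 for Lama3 and -30.7 for Lama5, and with at least 50% of a peak inside, 13.5 for Itga7 and -39.3 for Itgb7. Among members called neither way, the direction also turned at a fold of at least 4 for Lamc1, with 235 tags in D0 and 38.0 in iPSCs. The same held for Lamb2 (145 and 121) and Lama1 (452 and 10.6). The 15 members lower in every setting were Itga2, Itga2b, Itga5, Itga9, Itga10, Itgav, Itgb1, Itgb2, Itgb3, Itgb6, Lama2, Lama4, Lamb1, Lamc3 and Itgb3bp, and no member was higher in every setting.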

Other observations

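The overlap of H3.3 with the other marks at the members differed along the route. In D0, 38.2% of the bases under H3.3 at members also lay under H3K36me3, and the share was 33.9% at day 3, 14.2% at day 6 (T-), 33.2% at day 9 (T-), 1.497% at day 12 (S+) and 2.05% at day 16 (S+). The iPSCs had 6.81%. The part of the members' windows under H3K36me3 itself moved with it, at 9.85% in D0, 15.1% in D9T- and 1.497% in iPSCs. For H3K4me3 the part of H3.3 bases under it was 20.2% in D0, 7.58% in D16S+ and 23.8% in iPSCs, where H3K4me3 covered 4.08%, 0.949% and 2.79% of the windows.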
